A study of Mus musculus with 7 samples.

Results

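The Fc receptor genes described here encode the proteins that bind the constant part of antibodies, together with their signalling chain. They were the 9 entries of the deposited expression table whose gene name is Fcgr1, Fcgr2b, Fcgr3, Fcgr4, Fcer1g, Fcgrt, Fcer2a, Fcmr or Fcrla, of 54532 entries in all. Each of the 9 averaged 1 FPKM or more, the minimum for a test, as did 12999 entries in all. FPKM, fragments scaled to the gene's length and the library's reads, is a level per gene length and can be compared between genes. Bulk RNA-seq was made of cells sorted by flow cytometry for GFP from the spleens of mice labelled IL-17GFP/+, in which GFP reports the gene for interleukin-17. The labels call the cells Th17 cells, T helper cells that make interleukin-17. In the periodontitis group, with 3 libraries, silk ligatures had been placed on the first molars on both sides of the lower jaw, which sets off inflammation around the teeth. The health group, with 4 libraries, carried the same reporter and had no ligature. Age, sex and the time of ligature are not in the labels, nor whether libraries came from separate mice, so p-values speak of the spread between libraries. Health libraries are numbered 1 to 4 and periodontitis libraries 2 to 4, after their library names. Sample titles number the periodontitis libraries differently.

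Antibody bound to a target is read by cells through Fc receptors. In the mouse, FcgammaRI (Fcgr1), FcgammaRIII (Fcgr3) and FcgammaRIV (Fcgr4) are activating receptors for IgG on macrophages, monocytes, neutrophils and related cells. They depend on the common gamma chain (Fcer1g), whose ITAM, a tyrosine-based activation motif, recruits the kinase Syk. FcgammaRIIb (Fcgr2b) carries an inhibitory motif, the ITIM, that recruits the lipid phosphatase SHIP1 (Inpp5d), and it is the one classical IgG receptor of B cells. The neonatal receptor FcRn (Fcgrt) pairs with beta-2 microglobulin and returns IgG from endosomes to the blood, also in splenic macrophages. CD23 (Fcer2a), the low-affinity IgE receptor, FcmuR (Fcmr), the IgM receptor, and the intracellular Fcrla are mainly genes of B cells in the mouse. Resting T cells are known for little or no expression of the IgG receptors.

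Recovered reads, the whole reads behind the FPKM values, numbered 14161438 to 17891393 in health and 13513806 to 16717942 in periodontitis. The labelled cell type was checked against marker lists. Il17a was listed at 0 in 2 of the 4 health libraries and at most at 3.76 FPKM in the other two, against 136 to 362 FPKM in periodontitis. All 10 T cell markers were higher in periodontitis, with summed levels of 280 to 632 FPKM in health and 2018 to 4684 FPKM in periodontitis. All 11 macrophage markers were lower in periodontitis, with summed levels of 3967 to 11534 FPKM in health and 339 to 806 FPKM in periodontitis. Neutrophil markers summed to 15594 to 25582 FPKM in health and 5661 to 23782 FPKM in periodontitis, and 4 of 10 were lower. No defining marker of these 3 lists or of the B cell list was at 0 in any library. Health library 1 stood apart, with the highest macrophage sum and the lowest T cell and B cell sums. Xist, the RNA of the inactive X chromosome, was at 52.1 to 72.5 FPKM in health and 0.135 to 1.35 FPKM in periodontitis, while the Y-linked Ddx3y was at 0 in health and at 9.22 to 16.9 FPKM in periodontitis. For all results that follow, sex and periodontitis cannot be told apart. In bulk samples, fewer cells of a type and less RNA per cell cannot be told apart.

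Of the 9 Fc receptor genes, 6 were lower in periodontitis, none was higher and 3 did not pass the test (limma on values of log2(FPKM + 1), with a Benjamini-Hochberg adjusted p under 0.05 over all genes tested, two-sided). None was higher at an unadjusted p under 0.05 either, nor with limma voom on the recovered reads. The 6 were the activating receptors Fcgr1, Fcgr3 and Fcgr4, their common chain Fcer1g, the inhibitory receptor Fcgr2b and the neonatal receptor Fcgrt. The 3 that did not pass were Fcer2a, Fcmr and Fcrla. Over all genes tested, 10.2% were lower and 5.63% were higher by the same rule. In each of the 6, every periodontitis library was below every health library, which was so for 17.2% of all genes tested. The median log2 fold change, periodontitis minus health, was -2.28 over the 9 members and -0.06 over all genes. Fcgr1, Fcgr3, Fcgr4, Fcer1g and Fcgrt held their call in each of the 14 alternative settings without the replicate block, and Fcgr2b in 6 of them.

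**Figure D1:**
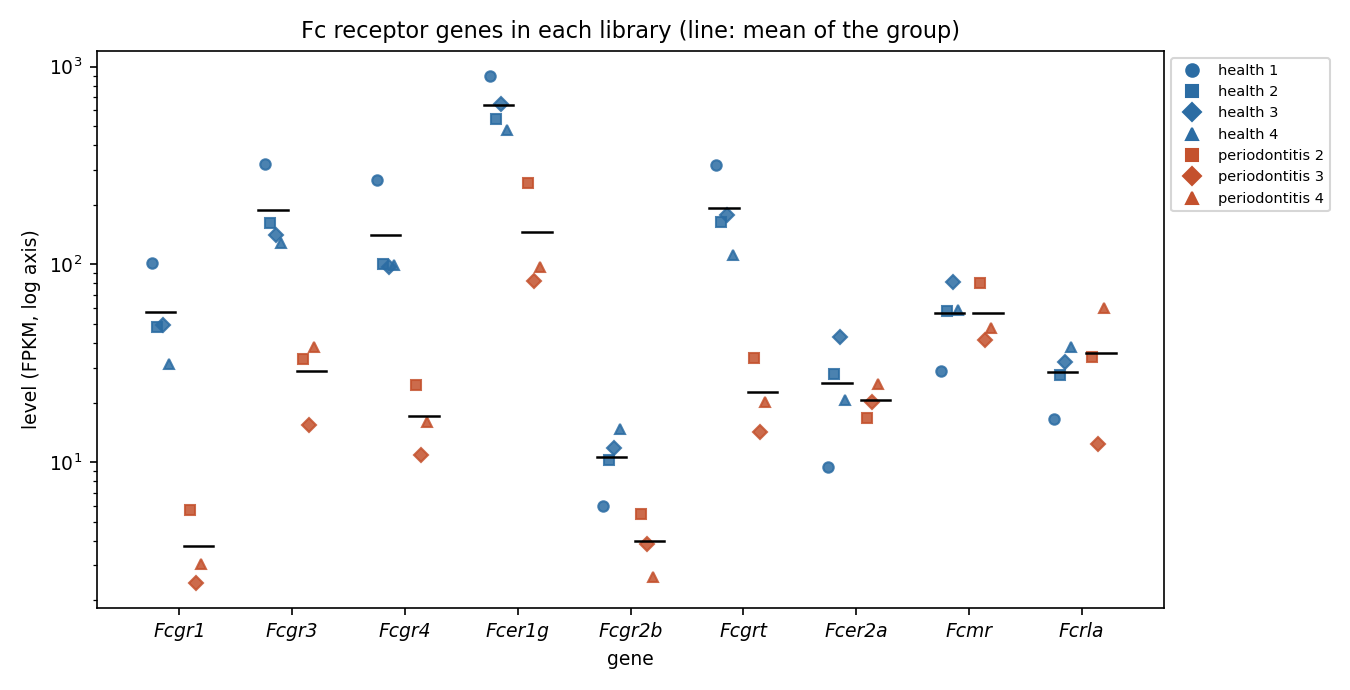
Level of each of the 9 Fc receptor genes in FPKM on a log axis; each point is 1 library (blue, 4 health; red, 3 periodontitis) and each line the mean of a group. The points of the groups do not overlap for the 6 genes on the left and overlap for Fcer2a, Fcmr and Fcrla.

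Among the activating receptors, Fcgr1, the high-affinity IgG receptor, had the largest log2 fold change of the 9 genes. Fcgr1 (ENSMUSG00000015947, chromosome 3, 96282909 to 96293969, minus strand, mm10) was at 101, 48.4, 49.5 and 31.2 FPKM in health libraries 1 to 4 and at 5.72, 2.46 and 3.05 FPKM in periodontitis libraries 2 to 4. Health 1 was highest, and the lowest health library was still more than any periodontitis library. The means were 57.6 ± 30.2 FPKM (SD, n = 4) and 3.74 ± 1.74 FPKM (SD, n = 3), a 15.4-fold difference that rests on 9677 and 439 reads. The log2 fold change of Fcgr1 was -3.56 (SE 0.40, 95% interval -4.47 to -2.65, limma adjusted p = 0.00106), and it was -3.25 without health 1.

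Fcgr3, the low-affinity activating receptor, had the highest level of the activating receptors in both groups. Fcgr3 (ENSMUSG00000059498, chromosome 1, 171051174 to 171064935, minus strand) was at 322, 161, 140.5 and 128 FPKM in health and at 33.2, 15.5 and 38.2 FPKM in periodontitis. Health 1 was again highest, and periodontitis 3 was lowest. The means of 188 ± 90.5 and 29.0 ± 12.0 FPKM (SD, n = 4 and 3) differed 6.49-fold, with a log2 fold change of -2.65 (SE 0.41, 95% interval -3.59 to -1.71, limma adjusted p = 0.00373).

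Fcgr4, the activating receptor for the IgG2 subclasses, was nearly level among 3 health libraries. Fcgr4 (ENSMUSG00000059089, chromosome 1, 171018920 to 171029761, plus strand) was at 267, 99.8, 96.9 and 99.2 FPKM in health and at 24.7, 10.8 and 16.0 FPKM in periodontitis. Health 1 lay far above the other health libraries, and all of these lay above periodontitis. The means of 141 ± 84.4 and 17.1 ± 7.0 FPKM (SD, n = 4 and 3) differed 8.21-fold; the log2 fold change came to -2.89 (SE 0.42, 95% interval -3.85 to -1.92, limma adjusted p = 0.00292), and -2.53 without health 1.

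Fcer1g, the chain these 3 receptors signal through, was the highest member in each of the 7 libraries. Fcer1g (ENSMUSG00000058715, chromosome 1, 171229572 to 171234365, minus strand) was at 895, 541, 645 and 476 FPKM in health and at 257, 82.7 and 96.9 FPKM in periodontitis. Periodontitis 2 held well above the level of the other periodontitis libraries. This library had the highest sum of its group for neutrophil, macrophage, monocyte, B cell, NK cell, T cell, and basophil and mast cell markers. It did not for plasma cell or dendritic cell markers. The part of any of these cell types in the level of Fcer1g was not tested. The means of 639 ± 184 and 146 ± 96.8 FPKM (SD, n = 4 and 3) differed 4.39-fold, with a log2 fold change of -2.28 (SE 0.44, 95% interval -3.27 to -1.28, limma adjusted p = 0.00946). Fcer1g stood at 1.30 to 2.25 times the summed level of Fcgr1, Fcgr3 and Fcgr4 in health and at 1.69 to 4.04 times in periodontitis, so these ranges overlapped.

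The promoters of the 3 activating receptor genes are shown because the genes fell together and share a stretch of letters close to the start. Each window runs from 250 bases before to 50 bases after the gene's start in RefSeq (build GRCm38.p6), 5′ to 3′ on the gene's strand, and all 9 members had a window. Capitals mark TTCCTCT, the reverse complement of AGAGGAA, a purine-rich word of the kind bound by PU.1, the myeloid and B cell transcription factor. The word was chosen after the sequences were seen. The windows are chr3:96293920-96294219 for Fcgr1, chr1:171059354-171059653 for Fcgr3, chr1:171018676-171018975 for Fcgr4 and chr1:170927534-170927833 for Fcrla, all on the minus strand except that of Fcgr4.
Fcgr1: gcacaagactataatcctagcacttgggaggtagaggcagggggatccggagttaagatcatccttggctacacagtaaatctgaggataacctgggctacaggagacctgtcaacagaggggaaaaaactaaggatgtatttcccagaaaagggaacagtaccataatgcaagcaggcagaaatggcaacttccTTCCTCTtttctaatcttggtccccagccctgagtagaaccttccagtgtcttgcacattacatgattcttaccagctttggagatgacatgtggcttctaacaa
Fcgr3: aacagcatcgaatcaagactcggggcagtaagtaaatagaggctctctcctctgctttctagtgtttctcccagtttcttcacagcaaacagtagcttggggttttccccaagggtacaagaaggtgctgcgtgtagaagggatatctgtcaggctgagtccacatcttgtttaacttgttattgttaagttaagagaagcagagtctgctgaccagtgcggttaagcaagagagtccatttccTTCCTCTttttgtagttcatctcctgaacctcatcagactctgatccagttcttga
Fcgr4: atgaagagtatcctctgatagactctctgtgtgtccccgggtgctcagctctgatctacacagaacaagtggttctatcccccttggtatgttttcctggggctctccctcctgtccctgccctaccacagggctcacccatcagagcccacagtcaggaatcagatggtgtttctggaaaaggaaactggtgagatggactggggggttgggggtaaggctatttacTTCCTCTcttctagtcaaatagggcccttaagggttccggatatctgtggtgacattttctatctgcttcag
Fcrla: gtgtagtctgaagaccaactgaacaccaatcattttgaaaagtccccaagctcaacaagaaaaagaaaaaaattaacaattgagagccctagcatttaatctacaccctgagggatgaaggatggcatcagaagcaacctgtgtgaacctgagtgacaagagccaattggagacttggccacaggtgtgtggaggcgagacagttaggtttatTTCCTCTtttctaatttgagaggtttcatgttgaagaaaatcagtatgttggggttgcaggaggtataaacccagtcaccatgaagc
The word began 55 bases before the start of Fcgr1, 6 before that of Fcgr3, 22 before that of Fcgr4 and 37 before that of Fcrla. Fcgr3 has a second RefSeq start, with the word 15 bases before it. Each Fcgr3 window lies inside the measured gene, whose own start on the minus strand is at 171064935. The word was found in these 4 of the 9 first windows, read on both strands, and in 10.5% of the first windows of all 27025 genes. Its form with a further G, AGAGGAAG, was in the windows of Fcgr1, Fcgr3 and Fcgr4 and in 4.51% of first windows; it contains the shorter word. The letters were not in the first windows of Fcgr2b, Fcer1g, Fcgrt, Fcer2a and Fcmr. Fcrla holds the shorter word and did not pass the test, so the word does not divide the members by their change; a match in a window is a description of the letters and no measure of binding.

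Fcgr2b, the inhibitory receptor, had the lowest mean of the 9 genes in health and, of the 6 genes that fell, the smallest difference. Fcgr2b (ENSMUSG00000026656, chromosome 1, 170958617 to 170976547, minus strand) was at 6.01, 10.3, 11.7 and 14.6 FPKM in health and at 5.46, 3.86 and 2.62 FPKM in periodontitis. Health 1, highest for the activating receptors, was here the lowest of its group and close to periodontitis 2. The means were 10.7 ± 3.58 and 3.98 ± 1.43 FPKM (SD, n = 4 and 3), a 2.68-fold difference, and the log2 fold change came to -1.21 (SE 0.32, 95% interval -1.94 to -0.47, limma adjusted p = 0.0369). This call was lost without health 2 (0.102), health 3 (0.105), health 4 (0.0989), periodontitis 3 (0.0780) or periodontitis 4 (0.101), and in 3 settings of scaling or filter with adjusted p from 0.0537 to 0.0826. Part of the Fcgr2b sequence is shared with Fcgr3: of the 1733 stretches of 50 bases in Fcgr3 transcripts, 166, or 9.58%, also occur in Fcgr2b, where they make up 2.92%. How reads that fit both genes were counted is not given in the sources used here. Fcgr2b as a percent of Fcgr3 was 1.87 to 11.4 in health and 6.85 to 25.0 in periodontitis. The log2 ratio of the inhibitory to the activating receptor was -3.97 ± 1.09 (SD, n = 4) in health and -2.53 ± 0.85 (SD, n = 3) in periodontitis. Its difference was 1.44 (95% interval -0.52 to 3.40, exact permutation two-sided p = 0.114). No ratio can reach 0.05 in this test, since the smallest p over the 35 arrangements is 0.0571. Without health 1 the difference was 0.92.

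Fcgrt, the heavy chain of the neonatal receptor, fell while the gene of its light chain, B2m, did not pass the test. Fcgrt (ENSMUSG00000003420, chromosome 7, 45092990 to 45103851, minus strand) was at 318, 164, 178 and 111 FPKM in health and at 33.7, 14.1 and 20.2 FPKM in periodontitis. Its order over the libraries was close to that of Fcgr4 and Fcgr1, with health 1 highest and periodontitis 3 lowest. The means of 193 ± 88.1 and 22.7 ± 10.05 FPKM (SD, n = 4 and 3) differed 8.50-fold; the log2 fold change came to -3.01 (SE 0.40, 95% interval -3.93 to -2.10, limma adjusted p = 0.00203). B2m, which also serves every MHC class I molecule, had a log2 fold change of 0.33 (95% interval -0.75 to 1.42, limma adjusted p = 0.675), and below 0 when each library was rescaled to the same total (-0.14). The log2 ratio of Fcgrt to B2m was -3.55 ± 0.44 in health and -6.90 ± 0.26 in periodontitis (SD, n = 4 and 3), a difference of -3.34 (95% interval -4.09 to -2.60) with groups that did not overlap. The exact permutation p of 0.0571 is the smallest that 35 arrangements of 4 against 3 libraries allow.

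The members known from B cells showed overlapping groups. Fcer2a, which encodes CD23 (ENSMUSG00000005540, chromosome 8, 3681737 to 3694175, minus strand), was at 9.47, 27.9, 42.7 and 20.5 FPKM in health and at 16.7, 20.1 and 24.9 FPKM in periodontitis. Both the lowest and the highest library were health libraries. Its log2 fold change was -0.12 (SE 0.44, 95% interval -1.12 to 0.89, limma adjusted p = 0.883). It was above 0, at 0.15, when features under 200 bases were left out and each library was scaled back to its former total. Fcmr, the IgM receptor gene (ENSMUSG00000042474, chromosome 1, 130865669 to 130880791, plus strand), was at 28.8, 58.0, 81.5 and 59.0 FPKM in health and at 80.4, 41.3 and 47.8 FPKM in periodontitis. Its means of 56.8 ± 21.6 and 56.5 ± 20.9 FPKM (SD, n = 4 and 3) were nearly level, with a log2 fold change of 0.02 (SE 0.38, 95% interval -0.84 to 0.89, limma adjusted p = 0.975) that was below 0 under other scalings (-0.44 with each library at the same total, -0.16 with quantile normalization). Fcrla, an Fc receptor-like protein kept inside B cells (ENSMUSG00000038421, chromosome 1, 170917576 to 170927583, minus strand), was at 16.4, 27.6, 32.2 and 38.2 FPKM in health and at 34.1, 12.4 and 60.1 FPKM in periodontitis. Here the lowest and the highest library were both periodontitis libraries, and the log2 fold change of 0.11 (SE 0.50, 95% interval -1.03 to 1.25, limma adjusted p = 0.900) was also below 0 with each library at the same total (-0.35). For these 3 genes the intervals reach past a log2 change of 0.8 in both directions, so changes of that size are not excluded here.

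**Figure D2:**
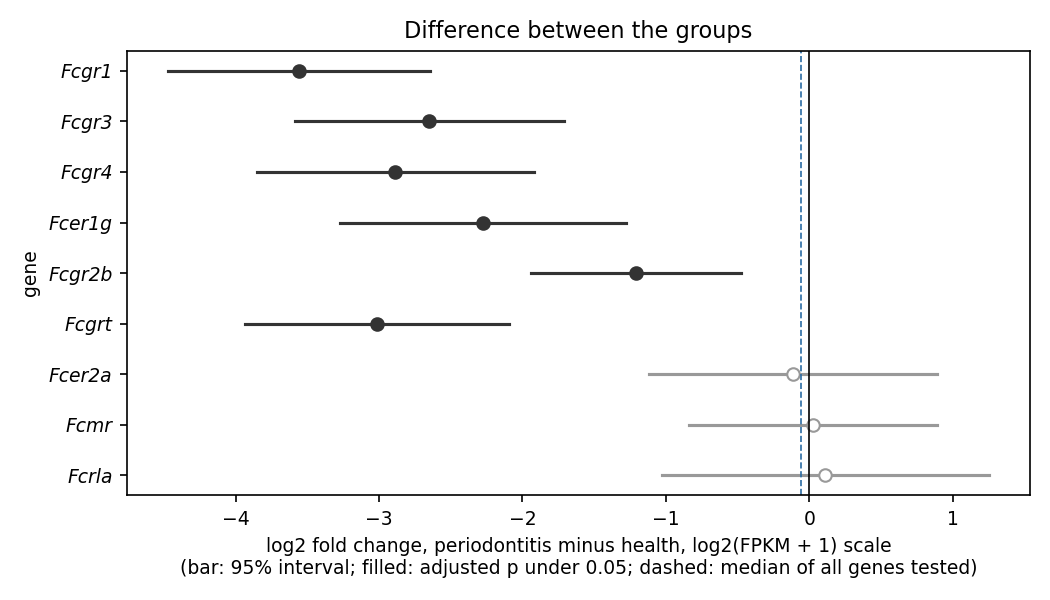
Log2 fold change, periodontitis minus health, of the 9 Fc receptor genes on the log2(FPKM + 1) scale with 95% intervals from limma; filled points passed at an adjusted p under 0.05, and the dashed line is the median of all 12999 genes tested (-0.06). The intervals of Fcer2a, Fcmr and Fcrla cover 0, and that of Fcgr2b ends nearest to 0 among the 6 that passed.

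B cell markers were weighed beside these 3 genes. Of the 10 markers 1, Blk, was higher and 1, Bank1, was lower, and their summed level was 350 to 797 FPKM in health and 498 to 878 FPKM in periodontitis; both genes were named after their values were seen. Relative to the mean log2 level of the B cell markers, the difference between the groups was 0.09 for Fcer2a (95% interval -0.69 to 0.87, exact permutation p = 0.743), 0.23 for Fcmr (-0.55 to 1.01, p = 0.571) and 0.32 for Fcrla (-0.68 to 1.32, p = 0.457). These differences moved with single libraries: leaving out 1 library gave -0.06 (without periodontitis 3) to 0.29 (without health 3) for Fcer2a, -0.08 (without periodontitis 2) to 0.51 (without periodontitis 4) for Fcmr, and 0.01 (without periodontitis 4) to 0.76 (without periodontitis 3) for Fcrla. Without Blk, an alternative chosen after seeing the data, these differences were 0.34, 0.48 and 0.56, and none passed.

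The makeup of the family differed between the groups. The 9 levels summed to 978 to 1965 FPKM in health and to 203 to 491 FPKM in periodontitis. Fcer2a, Fcmr and Fcrla together made up 2.78% to 12.2% of that sum in health and 26.7% to 42.9% in periodontitis, with no overlap. Fcer1g made up 45.6% to 50.5% in health and 31.3% to 52.4% in periodontitis, with overlap. In health the mean levels ran in the order Fcer1g, Fcgrt, Fcgr3, Fcgr4, Fcgr1, Fcmr, Fcrla, Fcer2a and Fcgr2b. Neighbours in that order kept it in all 4 libraries, except Fcgrt over Fcgr3 (2 of 4), Fcgr1 over Fcmr (1 of 4) and Fcrla over Fcer2a (2 of 4). In periodontitis the order was Fcer1g, Fcmr, Fcrla, Fcgr3, Fcgrt, Fcer2a, Fcgr4, Fcgr2b and Fcgr1. There the steps held in 3 of 3 libraries only from Fcer1g to Fcmr and from Fcgr4 to Fcgr2b, so most neighbours did not keep their order in every library.

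Among the activating receptors, Fcgr4 as a percent of Fcgr3 was 61.9 to 83.0 in health and 41.9 to 74.3 in periodontitis. The difference in their log2 ratio was -0.24 (95% interval -0.85 to 0.38, exact permutation p = 0.457), and 0.01 without periodontitis 4. Fcgr1 as a percent of Fcgr3 was 24.4 to 35.3 in health and 7.98 to 17.2 in periodontitis, without overlap. Its log2 ratio went from -1.72 ± 0.21 to -2.62 ± 0.57 (SD, n = 4 and 3), a difference of -0.91 (95% interval -1.68 to -0.14, exact permutation p = 0.0571), and -0.58 without periodontitis 4. For the common chain, the log2 ratio of Fcer1g to Tyrobp, the other ITAM adaptor of myeloid cells, was -0.01 ± 0.03 in health and -0.43 ± 0.20 in periodontitis, a difference of -0.42 (95% interval -0.66 to -0.17, exact permutation p = 0.0571). In health the pair was thus nearly level in every library.

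Of the genes that fell, only Fcgr3 and Fcer1g were set beside the macrophage markers, whose median log2 fold change was -3.81. Nearer to this median than Fcgr3 (-2.65) and Fcer1g (-2.28) were Fcgr1 (-3.56), Fcgrt (-3.01) and Fcgr4 (-2.89). Fcgr2b (-1.21) lay further from it. Ratios of Fcgr1, Fcgrt, Fcgr4 and Fcgr2b to the macrophage markers were not compared. The log2 ratio of Fcgr3 to the mean of these markers was higher in periodontitis by 1.18 (95% interval 0.67 to 1.69). That of Fcer1g was higher by 1.55 (95% interval 0.52 to 2.59), and by 1.13 without periodontitis 2. In both ratios, the groups did not overlap and the exact permutation p was 0.0571, the smallest possible. Median log2 fold changes were -0.80 for the 7 monocyte markers, of which 2 were lower, and -1.08 for the 10 neutrophil markers, of which 4 were lower. Monocyte markers summed to 672 to 958 FPKM in health and 314 to 616 FPKM in periodontitis. NK cell markers, with no call among 5, summed to 18.0 to 86.6 and 34.9 to 112 FPKM, and all 7 markers of basophils and mast cells to 16.3 to 42.0 and 10.7 to 32.5 FPKM, with no call among the 5 of them that were tested. Of the dendritic cell markers 1 of 4 tested was lower. The part of any of these cell types in the levels of the Fc receptor genes was not tested. In all, 10 ratios within libraries were compared, and no Benjamini-Hochberg adjusted p over the 10 was below 0.114.

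**Figure D3:**
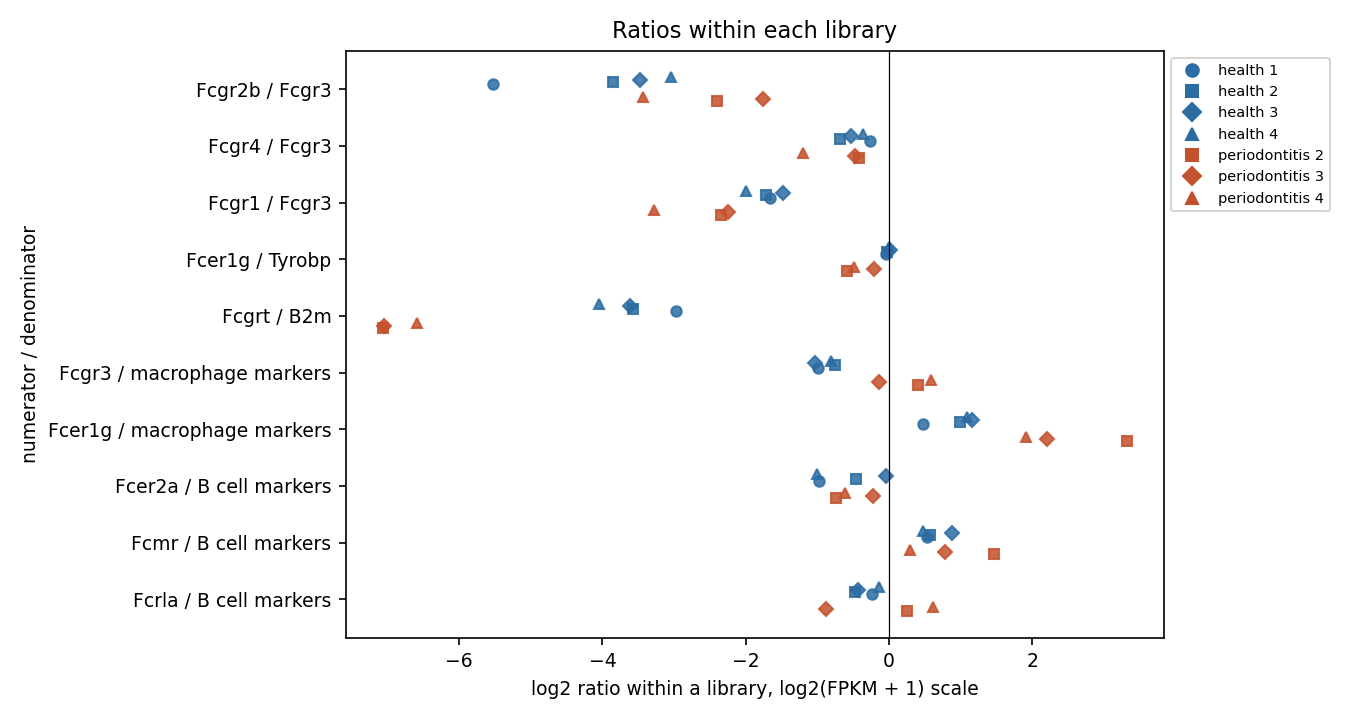
The 10 ratios within each library on the log2 scale of (FPKM + 1); each point is 1 library (blue, 4 health; red, 3 periodontitis), and marker lists enter as the mean log2 level of their genes. Groups are apart for Fcgr1 to Fcgr3, Fcer1g to Tyrobp, Fcgrt to B2m and both ratios to macrophage markers, and overlap for the others.

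Turning to the ligands, 1 of the 8 immunoglobulin heavy chain constant genes was higher in periodontitis, none was lower, and the median log2 fold change was 1.12. Their summed level was 3022 to 4458 FPKM in health and 4924 to 15172 FPKM in periodontitis. Ighg1, the constant region of IgG1, was at 398, 62.0, 182 and 131 FPKM in health and at 774, 413 and 836 FPKM in periodontitis, with a log2 fold change of 2.04 (limma adjusted p = 0.0489) that kept its call in 3 of 14 alternative settings. Ighm, Igha and Ighg2c had log2 fold changes of 0.98, 1.72 and 1.27 and did not pass. Of 6 plasma cell markers, 1, Sdc1, was higher and 5 did not pass. The sum of the 6 was 400 to 663 FPKM in health and 680 to 2386 FPKM in periodontitis; the part of these cells in the immunoglobulin levels was not tested.

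Of 10 further Fc receptor genes 6 could be tested, of which 1 was lower and none higher (median log2 fold change -0.70). The gene that fell was Fcrl1, a signalling receptor of B cells, at 16.2, 16.1, 23.2 and 18.2 FPKM in health and at 8.83, 7.74 and 8.89 FPKM in periodontitis, with a log2 fold change of -1.02 (SE 0.20, limma adjusted p = 0.0101). This call was lost when features under 200 bases were left out and each library was scaled back to its former total (-0.78, limma adjusted p = 0.0525). It was also lost with the replicate block (limma adjusted p = 0.0724). Fcrl5, Fcrlb and Fcer1a, the IgE-binding chain of the high-affinity IgE receptor, had log2 fold changes of -0.69, -0.91 and -0.71 and did not pass.

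Other adaptors of immune receptors had log2 fold changes of different sign. Tyrobp was at 927, 552, 636 and 476 FPKM in health and at 388, 95.9 and 136 FPKM in periodontitis, with a log2 fold change of -1.86 (limma adjusted p = 0.0356) that was kept in 7 of 14 alternative settings, where adjusted p reached 0.109. Cd247, the zeta chain of the T cell receptor, which in human NK cells also serves an IgG receptor, was at 5.46 to 10.4 FPKM in health and at 45.3 to 61.8 FPKM in periodontitis, with a log2 fold change of 2.47 (limma adjusted p = 0.000841). Hcst, an adaptor of NKG2D, had a log2 fold change of 1.58 and did not pass (limma adjusted p = 0.0854). Of 5 tested receptors that pair with Fcer1g, 2 were lower and none higher. These were Clec4n, the fungal receptor Dectin-2, with 118 to 332 FPKM in health and 8.80 to 28.8 FPKM in periodontitis, and Pira2, an activating immunoglobulin-like receptor, with 10.5 to 30.5 and 0.265 to 1.49 FPKM, uncertain because its family holds near-identical copies; their log2 fold changes were -3.29 and -3.07. Clec4e and Clec4d, also C-type lectins, had log2 fold changes of -1.41 and -1.11 and did not pass.

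Downstream of the ITAM, 10 of 18 genes of the activating signal were lower and none higher, with a median log2 fold change of -1.01. Syk, the kinase that docks on the phosphorylated ITAM, was at 93.1, 78.4, 70.7 and 67.8 FPKM in health and at 12.4, 16.6 and 23.1 FPKM in periodontitis, with a log2 fold change of -2.13 (SE 0.25, limma adjusted p = 0.00118). Of the Src family kinases, which phosphorylate ITAMs and ITIMs, Lyn and Fgr fell, with log2 fold changes of -2.45 and -2.35. Fyn of the same family, named after its value was seen, had a log2 fold change of 0.30 and did not pass (limma adjusted p = 0.391). Of the 5 subunits of the phagocyte oxidase, which is switched on when these receptors are engaged, 3 were lower. Cybb, its catalytic subunit, was at 95.8 to 163 FPKM in health and at 26.0 to 37.0 FPKM in periodontitis; log2 fold changes were -2.07 for Cybb and -1.35 for Ncf1, while Cyba had -0.51 and did not pass.

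On the inhibitory side, 9 of 14 genes were lower and 1 was higher (median log2 fold change -1.27). Inpp5d, the phosphatase recruited by Fcgr2b, was at 58.4, 40.4, 42.6 and 42.7 FPKM in health and at 31.4, 37.3 and 44.6 FPKM in periodontitis, with a log2 fold change of -0.28 (95% interval -0.78 to 0.22, limma adjusted p = 0.428). The ITIM receptors of myeloid cells were among those that fell. Sirpa, the receptor for CD47, was at 220 to 639 FPKM in health and at 23.4 to 26.0 FPKM in periodontitis, and log2 fold changes were -3.73 for Sirpa, -3.35 for Cd300a, -3.00 for Siglece and -2.16 for Pirb. Dok2, a docking protein also present in T cells and named after its value was seen, was higher, at 12.5 to 22.2 FPKM in health and 34.4 to 94.5 FPKM in periodontitis. The lists mix genes of many spleen cells, and their counts stand beside the 10.2% and 5.63% of all genes called lower and higher.

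**Figure D4:**
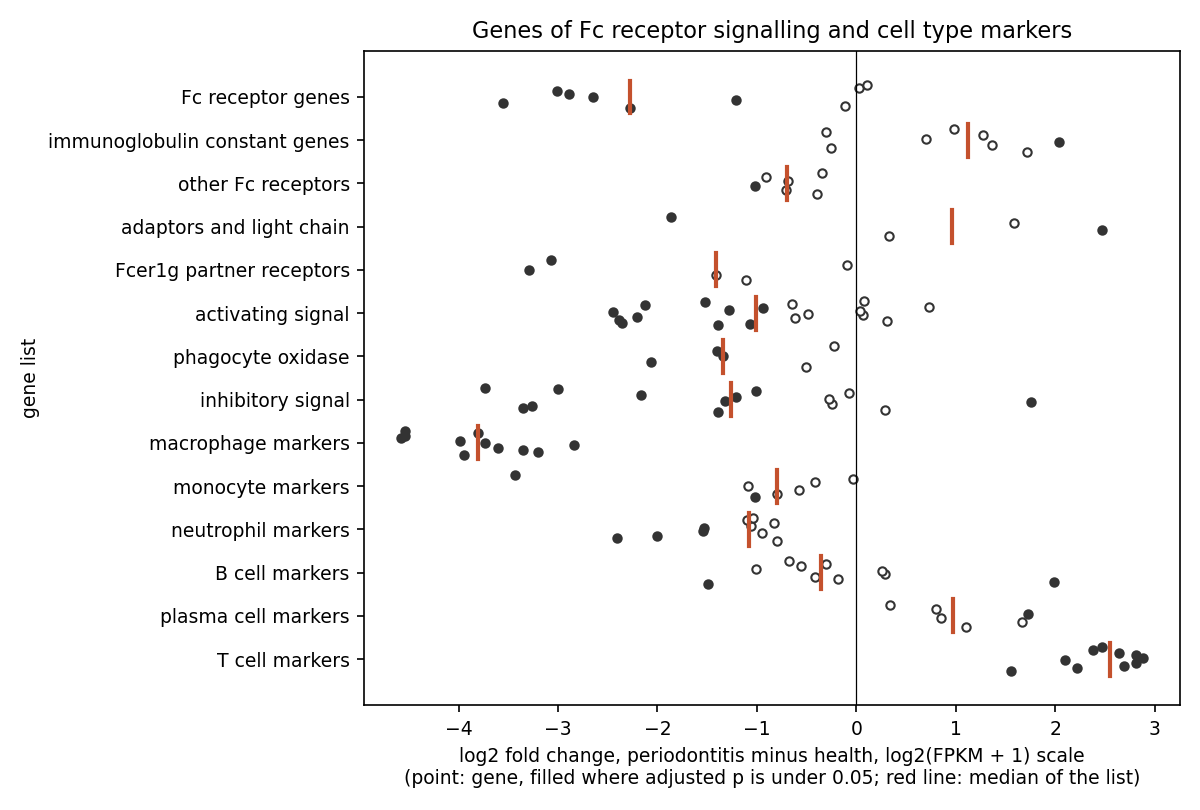
Log2 fold change, periodontitis minus health, of each tested gene of the listed groups; filled points passed at an adjusted p under 0.05 (limma over all 12999 genes), and red lines are list medians. The median of the Fc receptor genes (-2.28) lies between those of the neutrophil (-1.08) and macrophage (-3.81) markers, while the T cell markers lie above 0.

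For each member the genes with the most similar course over the 7 libraries were taken from 10810 protein-coding genes, by the root mean square difference between centred log2(FPKM + 1) values. The nearest genes were Cfp (0.133) for Fcgr1, Cd68 (0.193) for Fcgr3, Cd14 (0.110) for Fcgr4, Tyrobp (0.232) for Fcer1g and Cmbl (0.0952) for Fcgrt. Next to these came Kcnk13 and Pla2g15 for Fcgr1, Hfe and Ltbr for Fcgr3, Pilra and Apoe for Fcgr4, Bco2 and Lst1 for Fcer1g, and Pilrb1 and C1qa for Fcgrt. Fcgr2b was nearest to Ptpro (0.157), Ccno and Pik3r6. Among the genes nearest to Fcer2a were H2-Ob (0.195) and Lat2, and Fcmr was nearest to Ms4a4c (0.169), Mgst2 and Ptp4a3 and Fcrla to Coch (0.166), Bfsp2 and Mapk12. Within the family the closest pair was Fcgr4 and Fcgrt (0.237), followed by Fcgr1 and Fcgrt (0.285) and Fcgr3 and Fcgr4 (0.290). Fcgr2b was at 0.673 from Fcmr and at 1.41 from Fcgr1. These distances describe 7 libraries of 2 groups, in which any genes that differ alike between the groups lie close.

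Of the 9 genes, 5 lie in one stretch of chromosome 1, from 170917576 to 171234365 (316.8 kb, mm10), in the order Fcrla, Fcgr2b, Fcgr4, Fcgr3 and Fcer1g. In this stretch 4 members fell and Fcrla did not pass. It holds 7 other protein-coding genes, of which 4 could be tested, 1 was lower and none was higher. Fcgr1 lies on chromosome 3, Fcgrt on chromosome 7, Fcer2a on chromosome 8 and Fcmr elsewhere on chromosome 1. Short or antisense entries overlap 5 members: Gm38204 runs antisense to Fcgr2b (mean 0.453 FPKM in health and 0 in periodontitis) and Gm45669 antisense to Fcgrt (0.263 and 0 FPKM). Gm26110 lies within Fcgr4, Mir6546 within Fcgr3 and the pseudogene Gm2962 within Fcrla. Strand use is not given in the sources used here, so reads of a member and its antisense partner cannot be told apart.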

How the data were processed

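Gene expression was measured by RNA-seq in 4 health and 3 periodontitis libraries. The authors deposited FPKM values for 54532 genes. The submitters' processing notes name build mm10, featureCounts 1.5.0-p3, DESeq2 and HISAT2 2.0.5 without their settings. Strand use, read length and annotation release: not given in the sources used here. The deposited FPKM values times gene length are whole multiples of the value of 1 read, within 0.001, for 100% of nonzero values, so whole reads were recovered. Names occurring more than once (105 entries) were resolved by the highest mean. The coordinates and lengths of all 9 members equal those of GENCODE M21. FPKM columns sum to 375857 to 379328 in health and 475268 to 568848 in periodontitis, and features under 200 bases take 1.4% to 36.72% of the latter.

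Genes averaging 1 FPKM or more were tested on log2(FPKM + 1), which understates the change of low genes, with limma 3.58.1 in R 4.3.3 (variance trend, Benjamini-Hochberg over 12999 genes, threshold 0.05); the code was tested on simulated data. Ratios within a library were compared by two-sided exact permutation over 35 arrangements, with 95% intervals from the pooled SD. Every pair of libraries differed beyond sampling noise (lowest chi-square per degree of freedom 29.374). Same-numbered libraries were not treated as pairs, since their deviations correlated by -0.05, -0.02 and 0.04. Beside the members, the text names Tyrobp, Cd247, B2m, Syk and Inpp5d, up to 4 tested genes with the smallest p from each pathway list, and 3 nearest profiles per member; a few genes this rule names are not reported here. The members and lists were chosen with earlier results of these data known. The alternatives were another pseudocount, no filter, 3 scalings, limma voom on recovered reads, library weights, a replicate block and leaving out each library. The 3 scalings were to the same total, by quantiles, and without features under 200 bases, with each library then scaled back to its former total.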

Additional observations from a re-analysis of the deposited data

Results flagged for a closer look

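In the health group, 7 of 57 tested values had 1 library whose gap to the nearest other was a large share (above 0.829) of the group's range. In 6 of the 7 this was health library 1. The 57 values come from the same libraries and are not independent, so their count is not read against a rate by chance. Among the members Fcgr4 was flagged, at 267 FPKM in health 1 and 96.9 to 99.8 FPKM in the other health libraries. Pira2 (30.5 FPKM against 10.5 to 13.6), Siglece (271 against 116 to 141) and Inpp5d (58.4 against 40.4 to 42.7) were also high in health 1. Ighm was low there, at 422 FPKM against 785 to 857, as was the sum of NK cell markers, at 18.0 FPKM against 84.3 to 86.6. Fcer1a was at 3.22 FPKM in health 3 and at 0.833 to 1.23 FPKM in the others. Health 1 also had the highest macrophage marker sum; its part in these values was not tested.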

How the results depend on the processing

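Between 4 and 6 members were lower and none was higher in every setting. Over 38 named genes and 570 comparisons with an alternative, 508 kept direction and side of the threshold, 31 lost the call, 15 gained it and 16 reversed; the cause was not tested. In the replicate block, equal numbers share only a number, and health 1 has no partner. Its log2 fold changes for the named genes therefore equal those without health 1. The block left 4 members lower, as Fcer1g (limma adjusted p = 0.0507) and Fcgr2b (0.0638) missed the threshold. Over all genes it gave 321 higher and 657 lower in place of 732 and 1321. Setting all libraries to 1 total gave 409 and 2660, or 13.3% of calls higher in place of 35.7%, and moved the median log2 change by -0.44. Leaving out features under 200 bases and scaling each library back to its former total gave 1436 higher and 975 lower, or 59.6% higher. The median then moved by 0.24. That scaling raised the other values most in periodontitis 3, where short features held 36.72% of the total. Leaving out 1 library gave 427 to 881 higher (427 without health 2, 468 without health 3) and 864 to 1370 lower (864 without health 2). The log2 fold changes that reversed were all uncalled. Leaving out 1 library, Fcer2a ran from -0.50 to 0.19, Fcmr from -0.27 to 0.22, Fcrla from -0.39 to 0.71 and B2m from -0.067 to 0.54. Fcmr was -0.44 and Fcrla -0.35 at the same total, where B2m was -0.14. Fcmr was -0.16 with quantile normalization. Fcmr was -0.31 and Fcrla -0.45 with library weights. With the replicate block, Fcmr was -0.27 and Fcrla -0.12. Fcer2a was 0.15 with short features left out and libraries scaled back to their former totals. No ratio changed its side of the threshold, which the number of libraries does not let it pass. The difference reached 0.01 for Fcgr4 to Fcgr3, -0.06 for Fcer2a to B cell markers and -0.08 for Fcmr to B cell markers. Depth limits Fcgr1 most in periodontitis, where it rests on 107 to 220 reads per library.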
